A study of Rattus norvegicus with 31 samples.

Results

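Tac1 and Tac3 are the tachykinin precursor genes followed here in the rat striatum, each by the 1 probe annotated to it among the 22519 probes used (Tac1, gene ID 24806; Tac3, gene ID 29191, named Tac2 in older annotation). Expression was measured with Illumina RatRef-12 BeadChips in 31 striata of male Sprague-Dawley rats, 1 array per striatum. The hemiparkinsonian rats had received 5 µl of 6-hydroxydopamine (6-OHDA, a toxin taken up by dopamine neurons) at 2 µg/µl in the left medial forebrain bundle, the fibre tract that carries dopamine axons to the striatum, and had later been given apomorphine and then methamphetamine (METH) in rotation tests. About a week after the last test they received saline or METH (2.5 mg/kg), and striata were taken 2 hours later. The groups were the intact (non-lesioned) side after saline (SNL, 5 arrays), the lesioned side after saline (SL, 6), the intact side after METH (MNL, 6), the lesioned side after METH (ML, 6), and rats without a 6-OHDA injection that were given saline (SC, 4) or METH (MC, 4). The intact side therefore came from animals that carried a lesion in the other hemisphere and had already been exposed to METH. The labels do not say which intact and lesioned striata came from the same rat, and all p-values measure the spread between these striata.

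Tachykinins are neuropeptides cut from larger precursors. Tac1 encodes the precursor of substance P and neurokinin A, and Tac3 encodes the precursor of neurokinin B. Their receptors, Tacr1, Tacr2 and Tacr3, prefer substance P, neurokinin A and neurokinin B in that order and signal through Gq proteins and phospholipase C. In the striatum, Tac1 is a classical marker of the medium spiny neurons of the direct pathway, which carry the dopamine D1 receptor and dynorphin, and dopamine loss is known to lower its mRNA. The neurons of the indirect pathway carry the D2 receptor and enkephalin. In whole striatum, fewer cells of a type and less RNA per cell cannot be told apart.

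For Tac1, the RefSeq promoter table (build GRCr8, rat) was searched on both strands over the 250 bases before the start site the table uses for motifs of factors that respond to cAMP, calcium and neuronal activity. The Tac1 window held 1 CRE half-site (CGTCA or its reverse TGACG), whose first base lies 206 bases before the start, and 1 E-box (CACGTG), 72 bases before it. It held neither the full CRE (TGACGTCA), which contains the half-site, nor the AP-1 site (TGACTCA or TGAGTCA). Of the 33469 promoter windows of this length, 18.2% held the half-site, 5.59% the E-box, 1.59% the full CRE and 4.05% the AP-1 site. That start lies inside the span of Tac1 in the RefSeq gene table of the same build, and so do both matches, so the stretch before it may be transcribed in a longer gene model. These letters are shown because they are the stretch of Tac1 where such motifs occur; they are a description of sequence, and binding was not measured. The 30 bases around each match, on the plus strand of chromosome 4, are given with the match in capitals, the first at chr4:36645365-36645394 and the second at chr4:36645499-36645528.
Tac1 CRE half-site: tccctaaaattgCGTCAtttcgaacccaat
Tac1 E-box: tggggagagtgtCACGTGgctctccaggct

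Both probes were detected (detection p under 0.01) on all 31 arrays. Per array 8042 to 9451 probes were detected, and the lowest detected signal lay between 15.3 and 27.0. Deposited Tac1 signals, before normalization, ran from 776 to 2002 in SL and from 834 to 2919 in ML, against 1920 to 3906 in SNL and 1992 to 6504 in MNL. Values below are log2 intensities after background correction and quantile normalization unless stated otherwise. The values of ML replicate 22 and SL replicate 32 stood 4 rows away from their probe names as deposited. They were moved back, which brought their correlation with the per-probe median of all 31 arrays, taken as deposited, to 0.985 and 0.986. The lesioned-side results are given with and without these arrays. The tissue label held: of the medium spiny neuron markers, Ppp1r1b, Rgs9, Pde10a and Foxp1 were each detected on 31 of 31 arrays. Th, Slc6a3 and Slc18a2, the defining genes of dopamine neurons, whose cell bodies lie outside the striatum, were detected on 0 of 31.

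Tac1 was lower and Tac3 was higher on the lesioned side, with or without METH, and the sizes were alike: averaged over saline and METH, Tac1 was 2.29-fold lower and Tac3 was 2.41-fold higher on the lesioned than on the intact side. Tac1 fell by 1.20 on the log2 scale (SE 0.17, limma adjusted p = 9.25e-05), the lowest p among the probes that were lower. Tac3 rose by 1.27 (SE 0.15, limma adjusted p = 1.31e-05), the third lowest p among the probes that were higher. In this comparison 0.175% of the 9732 tested probes passed the adjusted threshold of 0.05, 13 higher and 4 lower, and both tachykinin genes were among them. Without the realigned arrays Tac1 fell by 1.21 (adjusted p = 0.00047) and Tac3 rose by 1.29 (adjusted p = 4.76e-05).

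**Figure D1:**
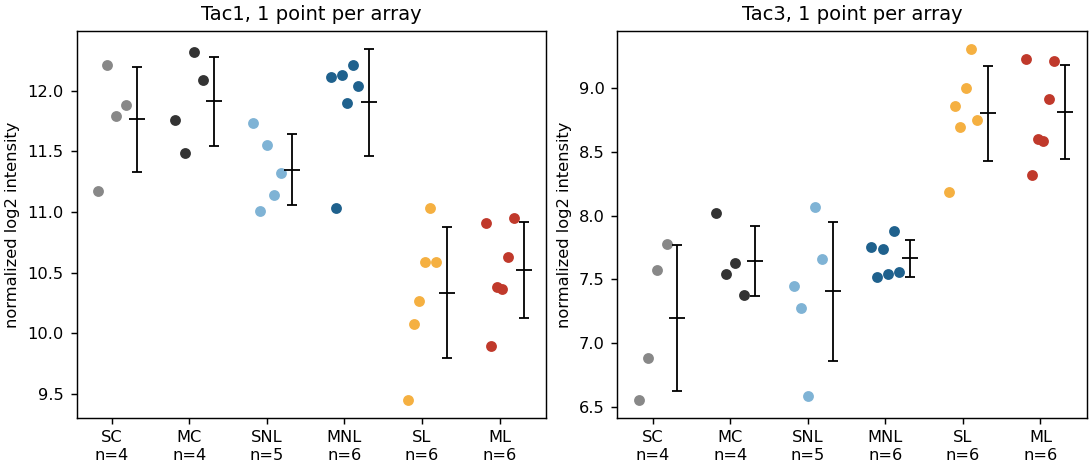
Normalized log2 intensity of Tac1 (left) and Tac3 (right), 1 point per array in the 6 groups, with the mean and SD beside each group. Tac3 on the 12 lesioned-side arrays lies between 8.19 and 9.31, above the other 19 arrays (6.56 to 8.07), and Tac1 on the lesioned side lies between 9.45 and 11.04, at or under the low end of the others.

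The first comparison was that of the lesion in saline-treated rats, SL vs SNL. In SNL, Tac1 read 11.73 in replicate 3, 11.00 in replicate 11, 11.55 in replicate 19, 11.14 in replicate 23 and 11.32 in replicate 27. In SL its lowest value was 9.45 (replicate 4), its median 10.43 and its highest 11.04 (replicate 28). SL replicate 28 therefore lay just above SNL replicate 11, and the groups overlapped by this 1 array. The Tac1 mean was 10.34 ± 0.54 (SD, n = 6) in SL and 11.35 ± 0.30 (n = 5) in SNL, a difference of -1.01 (SE 0.24). Tac1 had the lowest p of all probes that were lower in SL, but after adjustment over 9732 probes it did not pass the threshold (limma adjusted p = 0.182). Without the realigned arrays the difference was -1.06 (limma adjusted p = 0.275). With neighbouring striatum numbers taken as a random block it was -1.03 and passed (limma adjusted p = 0.0122), but the labels state no such pairing. No probe passed in that direction by limma, while 460 (4.73%) passed an unadjusted 0.05 in either direction. The methods' t-test, with the same adjustment added, called 1. The methods name a fold and a p cut-off and no such adjustment, so this count is not that of the paper's lists. The paper lists Tac1 among the genes lower in SL than in SNL, and its qPCR also had Tac1 lower on the lesioned side.

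Tac3 in the same comparison moved the other way. In SNL it read 7.45 in replicate 3, 7.28 in replicate 11, 6.59 in replicate 19, 8.07 in replicate 23 and 7.66 in replicate 27, whereas in SL its lowest value was 8.19 (replicate 4), its median 8.80 and its highest 9.31 (replicate 28). Every SL array was above every SNL array, a lack of overlap that 0.36% of the tested probes showed. The means were 8.80 ± 0.37 (SD, n = 6) and 7.41 ± 0.55 (n = 5), so Tac3 rose by 1.39 (SE 0.22, 2.62-fold, limma adjusted p = 0.00257), in a comparison where 0.0822% of the tested probes were called, all of them higher. Without the realigned arrays the rise was 1.40 (adjusted p = 0.00735). With only the compared groups in the fit, Tac3 did not pass (adjusted p = 0.088).

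In METH-treated rats the side of the lesion could be compared after the same drug (ML vs MNL), and here both genes passed. Tac1 in MNL had a lowest value of 11.03 (replicate 9), a median of 12.08 and a highest value of 12.21 (replicate 25b). In ML the lowest was 9.90 (replicate 10), the median 10.51 and the highest 10.95 (replicate 18). The groups did not overlap, and Tac1 fell by 1.38 (SE 0.23, 2.60-fold, limma adjusted p = 0.00408), again the lowest p of all probes that were lower. Tac3 ran from 7.52 (replicate 9) over a median of 7.65 to 7.88 (replicate 25b) in MNL, the tightest group for this gene. In ML it ran from 8.32 (replicate 10) over 8.76 to 9.22 (replicate 2), with no overlap, and rose by 1.14 (SE 0.21, 2.21-fold, limma adjusted p = 0.0102). Of all tested probes 0.123% were called in this comparison and 0.206% did not overlap between the groups. Without the realigned arrays Tac1 fell by 1.35 (adjusted p = 0.0154) and Tac3 rose by 1.18 (adjusted p = 0.0216).

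ML was also set against SNL, which is the same set of intact-side arrays as in SL vs SNL, so the comparisons share their reference. Tac1 was lower in ML by a log2 difference of -0.83 (SE 0.24) and the groups did not overlap (0.421% of probes did not), but it did not pass (limma adjusted p = 0.62; without the realigned arrays -0.80, adjusted p = 0.998). Tac3 rose by 1.40 (SE 0.22, limma adjusted p = 0.00173), with 0.0925% of probes called, and by 1.44 without the realigned arrays (adjusted p = 0.00624).

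The rats without a 6-OHDA injection give a reference that carries no lesion in either hemisphere. Tac1 in SC read 11.17 in replicate 6, 12.21 in replicate 8a, 11.79 in replicate 15 and 11.88 in replicate 16, and in MC 11.76 in replicate 5, 11.49 in replicate 13, 12.32 in replicate 7 and 12.09 in replicate 14. Every SC array was above every SL array, and every MC array above every ML array; 2.79% and 1.34% of the tested probes did not overlap in these comparisons. Tac1 fell by 1.43 in SL vs SC (SE 0.26, 2.69-fold, limma adjusted p = 0.0097, 0.164% of probes called). In ML vs MC it fell by 1.39 (SE 0.26, 2.62-fold, limma adjusted p = 0.0174, 0.0822% of probes called). Many probes leaned 1 way or the other in SL vs SC, where 17.6% passed an unadjusted 0.05, against 3.91% in ML vs MC.

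Tac3 in SC read 6.56 in replicate 6, 6.89 in replicate 8a, 7.58 in replicate 15 and 7.78 in replicate 16. In MC it read 8.02 in replicate 5, 7.55 in replicate 13, 7.63 in replicate 7 and 7.38 in replicate 14. All of these were under the lesioned-side arrays of the same treatment, and Tac3 rose by 1.60 in SL vs SC (SE 0.24, 3.03-fold, limma adjusted p = 0.00099) and by 1.17 in ML vs MC (SE 0.24, 2.24-fold, limma adjusted p = 0.0418). The ML vs MC calls were the least secure. Without the realigned arrays neither gene passed (adjusted p = 0.0506 for Tac1 and 0.0639 for Tac3). Tac1 also lost the call without MC replicate 5, 7 or 14 (adjusted p = 0.054, 0.15 and 0.0861), and Tac3 without ML replicate 2, 18, 22 or 30 or any 1 of the 4 MC arrays (adjusted p = 0.0529 to 0.204). In SL vs SC, Tac1 fell by 1.48 without the realigned arrays (adjusted p = 0.0132) and Tac3 rose by 1.61 (adjusted p = 0.00287), while Tac1 lost its call without SC replicate 8a (adjusted p = 0.0967).

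**Figure D2:**
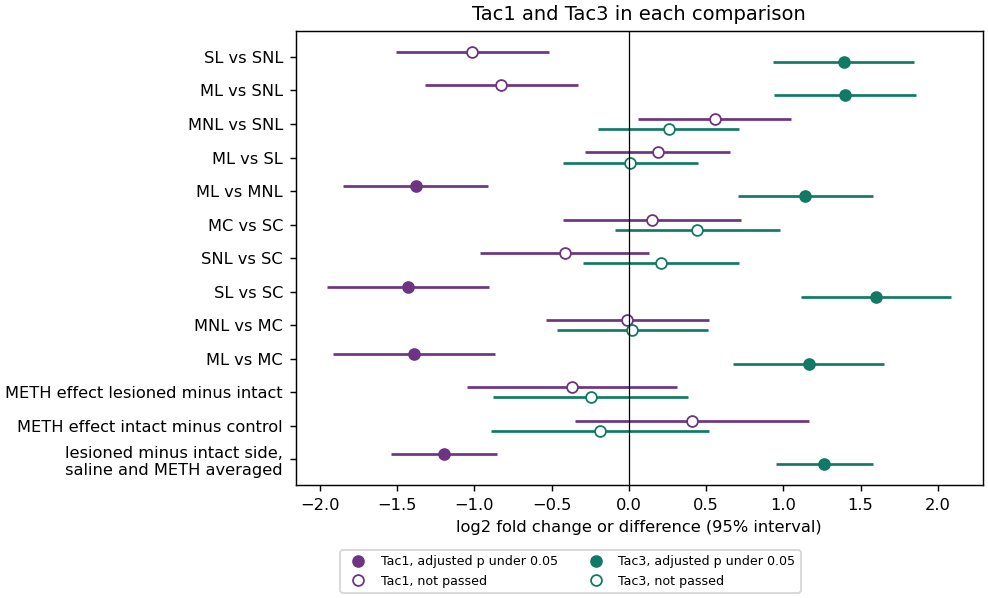
Log2 fold change with its 95% interval for Tac1 (purple) and Tac3 (green) in each of 13 comparisons, the first 10 between 2 groups. Filled points passed an adjusted p of 0.05. The comparisons of a lesioned side with an intact or control side lie left of 0 for Tac1 and right of 0 for Tac3, and those without a lesion difference lie between -0.42 and 0.56, none of them passed.

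METH left a smaller mark on both genes, and no METH comparison of these arrays passed for either. By qPCR the paper reports small Tac1 increases after METH in control rats and on the intact side. It reports no METH effect on Tac3, there named Tac2. On the intact side (MNL vs SNL), Tac1 was 0.56 higher on the log2 scale (SE 0.24, 95% interval 0.06 to 1.05, limma adjusted p = 0.839), in a comparison where 0.113% of probes were called. In MNL 5 of 6 arrays lay between 11.90 and 12.21, above all SNL arrays, and replicate 9 lay at 11.03, within the SNL range. Without that array the difference was 0.73 (adjusted p = 0.508). On the lesioned side (ML vs SL), Tac1 differed by 0.19 (95% interval -0.28 to 0.66; 0.27 without the realigned arrays), and in control rats (MC vs SC) by 0.15 (-0.43 to 0.72), where 0.0103% of probes were called. In ML vs SL limma called 0 probes, 185 (1.9%) passed an unadjusted 0.05 and the methods' t-test, with the adjustment added, also called 0.

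For Tac3 the METH differences were 0.26 on the intact side (95% interval -0.20 to 0.72), 0.44 in control rats (-0.09 to 0.98) and 0.01 on the lesioned side (-0.43 to 0.45; 0.04 without the realigned arrays). Single arrays moved the first pair: the intact-side difference was 0.05 without SNL replicate 19 and 0.42 without SNL replicate 23, and the control difference was 0.23 without SC replicate 6 and 0.13 with array weights. The METH effect itself was compared between the sides: lesioned minus intact, it differed by -0.37 for Tac1 (95% interval -1.05 to 0.31) and by -0.25 for Tac3 (-0.88 to 0.38), both with a limma adjusted p of 1. Intact minus control it differed by 0.41 for Tac1 (-0.35 to 1.17) and by -0.19 for Tac3 (-0.89 to 0.52), both with an adjusted p of 0.999. Limma called 0 probes for either of these differences, with 208 (2.14%) and 164 (1.69%) past an unadjusted 0.05. The intervals for Tac1 reach past 1 on the log2 scale, so a difference between METH effects of that size is not excluded.

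The intact side was close to the striatum of control rats for both genes, within wide intervals. In SNL vs SC, Tac1 differed by -0.42 (95% interval -0.96 to 0.13) and Tac3 by 0.21 (-0.30 to 0.72), with limma adjusted p = 0.986 for each. In MNL vs MC, Tac1 differed by -0.009 (-0.54 to 0.52) and Tac3 by 0.02 (-0.47 to 0.51). Limma called 0 probes in either comparison, with 397 (4.08%) and 181 (1.86%) past an unadjusted 0.05.

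By mean level the order for Tac1 was MC (11.91), MNL (11.90), SC (11.77), SNL (11.35), ML (10.52) and SL (10.34). Neighbours in this order overlapped except SNL and ML, whose nearest arrays were 11.00 and 10.95. For Tac3 the order was ML (8.81), SL (8.80), MNL (7.67), MC (7.64), SNL (7.41) and SC (7.20), and the only neighbours without overlap were SL and MNL.

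The difference between the genes within an array (Tac3 minus Tac1, on the log2 scale) cancels any factor that scales a whole array, and its change between groups is independent of how brightly each probe hybridizes. The value itself, which also reflects the probes, was not read as a ratio of the transcripts. In SL it was -1.84 at the lowest, -1.58 at the median and -1.22 at the highest, and in ML -1.79, -1.73 and -1.57. In MNL it was -4.48, -4.36 and -3.51, in SNL it ran from -4.96 to -3.07, in SC from -5.33 to -4.10 and in MC from -4.71 to -3.73. All 12 lesioned-side arrays lay above all 19 others, with a gap of 1.23 between the nearest arrays, against a gap of 0.12 for Tac3 alone and an overlap for Tac1 alone. Of the 9732 tested probes, 3 (0.0308%) separated these 12 arrays from the 19 others, Tac3 among them. The difference from Tac3 separated them for 38.9% of the other probes and the difference from Tac1 for 11.2%, so the lack of overlap is common once either gene is in the pair. A gap as wide as that of Tac3 minus Tac1 was reached by 21 of 47351046 pairs of tested probes. With Tac1 in the pair, 5 of the 9731 other probes reached it, Tac3 among them. With Tac3 in the pair, 1 of 9731 did, which is Tac1 itself. Both genes were chosen with earlier results of these data known, so these counts are descriptions only. Without the realigned arrays the SL values ran from -1.73 to -1.22 and the ML values from -1.79 to -1.57, and the gap was 1.28.

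**Figure D3:**
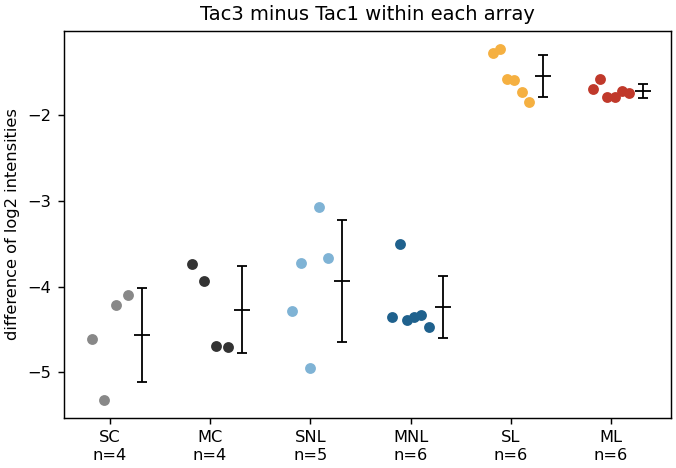
Tac3 minus Tac1 log2 intensity within each array, by group, with the mean and SD beside each group. The lesioned-side groups SL and ML lie between -1.84 and -1.22 and the other 4 groups between -5.33 and -3.07.

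In the deposited signals, which are background-subtracted but not normalized, the same 12 arrays ran from -1.87 to -1.29 and the others from -5.40 to -3.13. In the normalized values, the group means of the difference were -1.54 ± 0.25 (SD, n = 6) in SL, -1.72 ± 0.08 (n = 6) in ML, -3.94 ± 0.71 (n = 5) in SNL, -4.24 ± 0.36 (n = 6) in MNL, -4.57 ± 0.55 (n = 4) in SC and -4.27 ± 0.51 (n = 4) in MC. The balance of Tac3 to Tac1 was thus 5.29-fold higher in SL than in SNL, 5.74-fold higher in ML than in MNL, 8.16-fold higher in SL than in SC and 5.87-fold higher in ML than in MC. Between ML and SL it differed by -0.18, and between MNL and SNL by -0.30, each less than the SD of 1 of its groups. No test is given for this difference, which combines both genes.

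Although the genes moved apart between the sides, they rose and fell together among the arrays of ML, and less firmly among those of SL and MNL. The other groups did not share this: r was -0.39 in SNL (n = 5), -0.24 in MC (n = 4) and 0.43 in SC (n = 4). Over the 31 arrays with group means subtracted it was 0.44. In ML the correlation of Tac1 with Tac3 was r = 0.98 (rho = 0.94, n = 6), and it was 1.00 without the 2 arrays farthest from the Tac1 median and 0.99 without replicate 22, the realigned array. Of the other tested probes, Tac3 included, 0.0514% correlated with Tac1 at least as highly in ML. In SL it was r = 0.92 (rho = 0.78, n = 6), but 0.25 without the 2 farthest arrays, so it rested on replicates 4 and 28; without replicate 32, the realigned array, it was 0.96, and 2.38% of probes reached the value over 6 arrays. In MNL, on the intact side, it was r = 0.66 (rho = 0.94, n = 6), and 0.98 without the 2 farthest arrays, and 11.4% of probes reached 0.66. The arrays of a group share the dissection and array-wide factors, and these correlations are descriptions only.

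**Figure D4:**
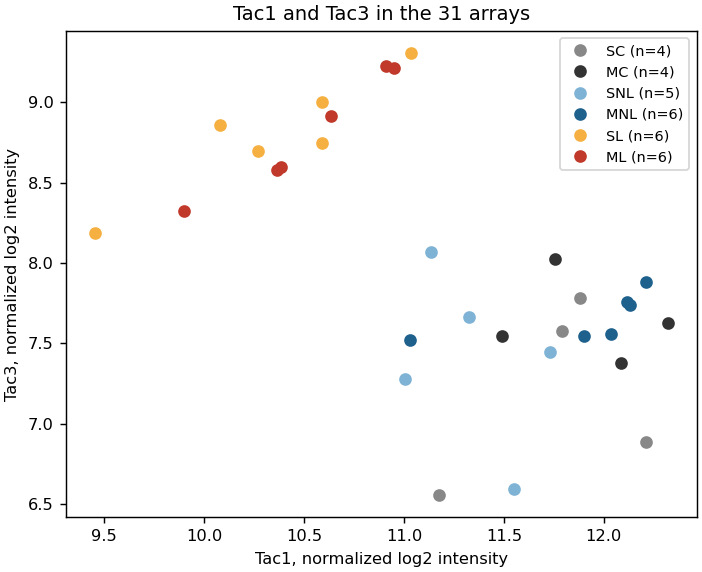
Tac3 against Tac1, normalized log2 intensity, 1 point per array coloured by group. The 12 lesioned-side arrays form an upper left band, Tac3 from 8.19 to 9.31, in which the genes increase together, apart from the 19 intact-side and control arrays.

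Within-group differences in Tac1 went with most, but not all, of the medium spiny neuron genes compared. After each group's mean was subtracted, Tac1 correlated over the 31 arrays with Ppp1r1b (DARPP-32, a phosphatase inhibitor of medium spiny neurons; r = 0.81), Drd1 (the D1 receptor; 0.77), Chrm4 (the M4 muscarinic receptor; 0.77), Penk (proenkephalin; 0.78) and Drd2 (the D2 receptor; 0.72), whereas Tac3 correlated less with each (0.37, 0.22, 0.30, 0.31 and 0.16). Pdyn, the other direct-pathway peptide gene, correlated with Tac1 at only 0.32 (-0.27 in SL and 0.10 in ML). Of 2 further peptide genes compared, Nmu (neuromedin U) stood at 0.76 and Nts (neurotensin) at 0.41. The highest such value with Tac1 among 7088 genes was that of Actn2 (0.89), which is on none of the lists. How many genes reach these values was not counted, so they do not single out medium spiny neuron genes. The summed level of the 4 medium spiny neuron markers ran from 13.38 to 14.54 in SL, 13.69 to 14.45 in ML, 14.03 to 14.74 in SNL, 13.63 to 14.55 in MNL, 14.45 to 14.55 in SC and 14.28 to 14.56 in MC, and the median lesion difference of these markers was -0.18, against -0.009 for all tested probes. None of the 4 passed the test, and their part in the Tac1 difference was not tested.

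The tested genes of the tachykinin system other than the precursors showed no call in any of the 13 comparisons. Tacr1, the substance P receptor, was detected on 31 of 31 arrays and differed by -0.10 between lesioned and intact side (SE 0.13, limma adjusted p = 0.999). Tac4, the precursor of hemokinin, and Tacr3, the neurokinin B receptor, were detected on 0 of 31 arrays, so their level there was under the detection limit. No probe was annotated to Tacr2.

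Of 7 listed genes that process or amidate neuropeptides, 4 had a tested probe and 0 were called. Pcsk1, Cpe and Furin had no probe under these symbols in the annotation used, so they were not assessed. The paper lists Pcsk1 among the genes higher in SL, ML and MNL than in SNL. The 4 tested genes were Pcsk2, a prohormone convertase, Pam, the amidating enzyme, Scg5, the chaperone of Pcsk2, and Pcsk1n, the inhibitor of Pcsk1. Between lesioned and intact side these differed by 0.06, 0.07, -0.02 and 0.22, in that order. Of 6 peptidases that can degrade tachykinins, 5 were tested and 0 were called; Mme (neprilysin) differed by -0.25 (SE 0.12, limma adjusted p = 0.999), Ace by 0.02 and Ece1 by 0.02. Of 9 genes of Gq signalling, 5 were tested and 0 were called, with a median of 0.00. Against the shifts of Tac1 and Tac3, all of these estimates between lesioned and intact side, averaged over saline and METH, lay between -0.25 and 0.22. Single comparisons reached further. In SL vs SC, Pcsk1n differed by 0.75 (SE 0.19, limma adjusted p = 0.097) and Plcb1, a phospholipase C, by -0.65 (SE 0.23, limma adjusted p = 0.16). Mme was detected on only 16 arrays.

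**Figure D5:**
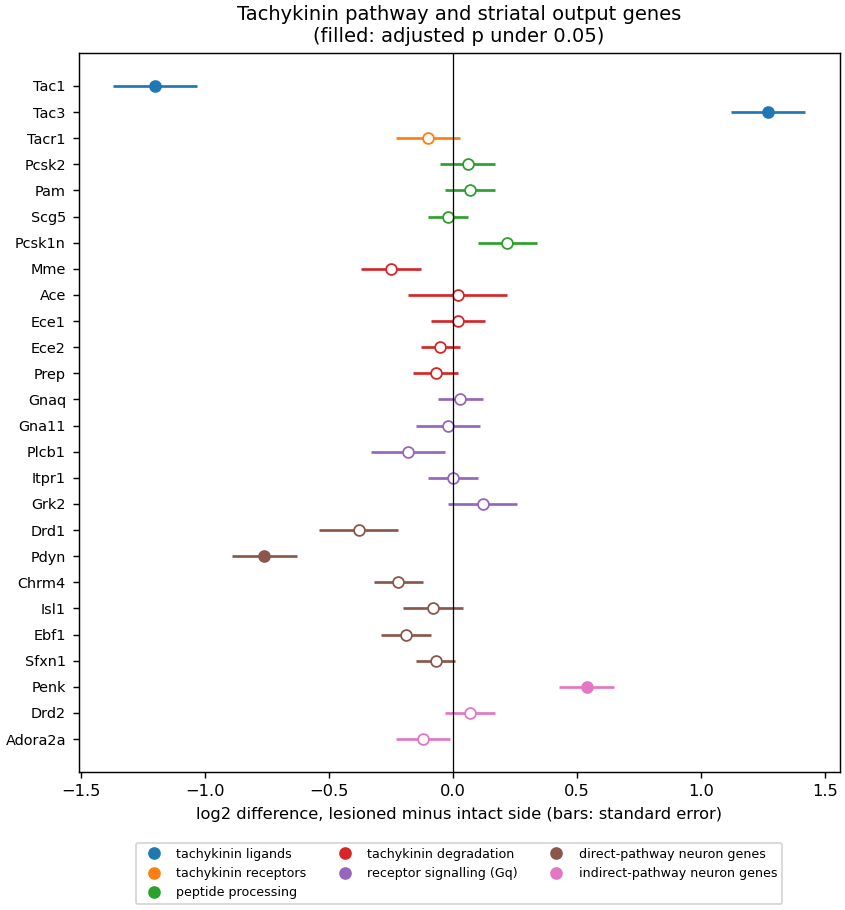
Log2 difference between lesioned and intact side, saline and METH averaged, for the tested genes of the tachykinin pathway and of striatal output neurons, with bars of 1 SE. Filled points passed an adjusted p of 0.05: Tac1 (-1.20), Tac3 (1.27), Pdyn (-0.76) and Penk (0.54).

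Among the genes of direct-pathway neurons, 6 of 8 had a tested probe, and 1 was called between lesioned and intact side, where 0.175% of all tested probes were. Pdyn, the precursor of dynorphin, which direct-pathway neurons release beside substance P, fell by 0.76 (SE 0.13, limma adjusted p = 0.00231). It also fell in SL vs SC by 1.00 (adjusted p = 0.0242), and it did not pass in SL vs SNL (-0.72, adjusted p = 0.36), ML vs MNL (-0.80, 0.0708) or ML vs MC (-0.76, 0.274). Drd1 differed by -0.38 (SE 0.16, adjusted p = 0.999), Chrm4 by -0.22 and Ebf1, a transcription factor, by -0.19. All 6 estimates were under 0, with a median of -0.21, while 45.6% of all tested probes had an estimate over 0. Of the genes of indirect-pathway neurons, 3 of 6 were tested: Penk, the precursor of enkephalin, rose by 0.54 (SE 0.11, adjusted p = 0.0168), Drd2 differed by 0.07 and Adora2a, an adenosine receptor, by -0.12. The log2 shift of Tac1 was thus larger in size than that of Pdyn, and the shift of Tac3 larger than that of Penk; the difference between genes was not tested.

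Markers of neighbouring tissue were examined because Tac3 is also made outside the striatum, in the hypothalamus and the habenula among other regions. Of 5 hypothalamic genes, Hcrt and Kiss1 were detected on 0 arrays, Oxt on 2, Pmch on 3 and Avp on 6, and the summed level of the list ran from 6.89 to 10.15 in SL and 6.93 to 7.44 in ML, against 6.86 to 7.23 in SNL and 6.93 to 7.00 in MNL. The habenular gene Gpr151 and the thalamic gene Tcf7l2 were detected on 0 arrays, but Slc17a6, a vesicular glutamate transporter of the thalamus, was detected on 31 of 31. It differed by -1.04 in MNL vs SNL (SE 0.60, adjusted p = 0.839), by -0.87 in ML vs SNL (SE 0.60, 0.93), by -0.17 in SL vs SNL and by 0.00 between lesioned and intact side (SE 0.41), and the summed level of that list ran from 6.64 to 9.69 in SL, 6.52 to 8.53 in ML, 7.83 to 8.45 in SNL and 6.60 to 8.42 in MNL. The choroid plexus list (Ttr, Clic6, Kl, Folr1 and Kcnj13) varied widely within groups, from 7.79 to 13.67 in SL, 7.64 to 13.09 in ML, 7.72 to 12.60 in SNL and 7.71 to 10.00 in MNL, and Kcnj13 was detected on 0 arrays. Summed microglial markers ran from 10.30 to 11.01 in SL and from 9.49 to 10.53 in SNL, and in METH-treated rats from 10.47 to 10.84 in ML and from 10.32 to 10.61 in MNL. None of the tested genes on these lists was called between lesioned and intact side. The same held for interneurons (4 tested), cortical projection neurons (3), oligodendrocytes (5) and astrocytes (4). Avp, the only tested hypothalamic gene, was 0.58 higher on the lesioned side (SE 0.43). The 3 tested choroid plexus genes were also higher there, Ttr by 1.02 (SE 0.83). The part of these tissues in the Tac3 rise was not tested.

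By correlation, the genes whose log2 values over the 31 arrays were most like those of each tachykinin gene were named, among 7088 genes. For Tac3 these were Nmu (neuromedin U, a neuropeptide; r = 0.93), Fst (follistatin, an activin-binding protein; 0.87), Nts (neurotensin, a neuropeptide; 0.85), Krt17 (a keratin; 0.85) and Upb1 (an enzyme of pyrimidine breakdown; 0.85). All 5 were higher on the lesioned than on the intact side, Nmu by 2.15 (limma adjusted p = 1.08e-07), Fst by 1.48 (1.42e-06), Nts by 1.32 (9.25e-05), Krt17 by 1.64 (0.00137) and Upb1 by 1.30 (0.000113). With the group means removed, their correlation with Tac3 was 0.66, 0.47, 0.48, 0.55 and 0.50. The most opposite genes were Atrn (r = -0.74), Tgfa (-0.73) and Desi1 (-0.73), none of which was called (adjusted p = 0.375 to 0.999).

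For Tac1 the nearest genes were Plppr1 (r = 0.80), Slc22a3 (an organic cation transporter; 0.80), Kcnd1 (a potassium channel; 0.80), Pdyn (0.79) and Drd1 (0.79). With the group means removed, Slc22a3 stayed at 0.88, Kcnd1 at 0.81, Drd1 at 0.77 and Plppr1 at 0.72, while Pdyn stood at 0.32. The most opposite genes were Shisa8 (r = -0.82), which rose by 1.05 on the lesioned side (limma adjusted p = 4.59e-05), Tpbg (-0.69) and Sorcs3 (-0.68), with differences of 0.31 and 0.17 that did not pass. These correlations over all arrays share the difference between the sides, which sets much of their size.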

How the data were processed

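The authors deposited bead-summarised signal intensity from BeadStudio, background-subtracted and not normalized, with a detection p-value per probe; methods name global normalization and an unpaired t-test for their own analysis. They also deposited a log2 table, which is the log2 of the signal less a constant per probe (within 0.073 in 30 columns; how the constant was set is unknown; column medians -0.123 to 0.38; as deposited, the column of ML replicate 22 holds fraction values, 1 minus the detection p-value, and was not used). The genome build of the probes is not given in the sources used here. Of 22523 probes, 4 were left out at the shifted rows; row shifts up to 10 were tried. Symbols came from the platform annotation, updated through a GRCr8 table: 13793 probes had 1 symbol and 8730 none.

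Signals were processed with neqc (limma 3.58.1, R 4.3.3; normexp from detection p-values, offset 16, quantile, log2). The 9732 probes with a detection p below 0.01 in 4 or more arrays entered 1 fit with lmFit and eBayes, which had 6 group means, 25 residual degrees of freedom and 4.85 from the prior, with Benjamini-Hochberg adjustment within a comparison. Named are both tachykinin genes, the pathway ligands and receptors, listed genes that passed or had the largest differences in SL vs SNL (up to 4 a list), and the 5 genes most like and 3 most opposite by correlation. Where a gene has several probes, the one with the highest mean signal stands for it; summed marker levels are log2 of summed linear values. The members and lists were chosen with earlier results of these data known. The number of arrays limits the precision.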

Additional observations from a re-analysis of the deposited data

Results flagged for a closer look

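MNL replicate 9 stood apart from the other 5 arrays of its group for Tac1, with a log2 intensity of 11.03 where the others lay between 11.90 and 12.21. Its gap to the nearest array was 0.738 of the range of the group. The same array stood apart in the difference Tac3 minus Tac1, at -3.51 (0.847 of the range), while its Tac3 value of 7.52 was the lowest of the group by a small margin. The array was looked at because of its distance from its group; 18 groups of values were examined in this way, and chance marks about 1 in 20. Its value for the difference remained under every lesioned-side array.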

How the results depend on the processing

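Tac1 and Tac3 between lesioned and intact side, saline and METH averaged, kept direction and call under all 10 alternative settings and without any 1 of 23 arrays (Tac1 -1.28 to -1.11, Tac3 1.12 to 1.37). Of 280 values under other settings 254 kept direction and side of the threshold, and 311 of 338 without 1 array did. Under the methods' t-test with Benjamini-Hochberg adjustment, the following did not pass: Tac3 in SL vs SNL (1.47), ML vs SNL (1.48), ML vs MNL (1.20), SL vs SC (1.71) and ML vs MC (1.23), and Tac1 in ML vs MNL (-1.42), SL vs SC (-1.40) and ML vs MC (-1.41). With only the compared groups fitted, Tac3 in SL vs SNL (1.39), SL vs SC (1.60) and ML vs MC (1.16) and Tac1 in SL vs SC (-1.43) did not pass. In ML vs MC, calls were also lost with the deposited log2 table (Tac1 -1.39, Tac3 1.27), with all probes tested (-1.39, 1.16), without the realigned arrays (-1.36, 1.21), and for Tac3 with global scaling (1.23). Without 1 array, ML vs MC ranged from -1.53 to -1.25 for Tac1 and from 1.08 to 1.29 for Tac3, and SL vs SC from -1.63 to -1.25 for Tac1. The cause was not tested.

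Differences near 0 changed sign. Tac1 in MNL vs MC was 0.0068 with global scaling and with the t-test, 0.03 with array weights and 0.0049 without quantile normalization (added after seeing the data). Tac3 with array weights was -0.0008 in SNL vs SC and 0.02 for the METH effect intact minus control. Without 1 array, Tac3 ranged from -0.11 to 0.11 in ML vs SL, from -0.0043 to 0.41 in SNL vs SC, from -0.07 to 0.15 in MNL vs MC and from -0.39 to 0.03 for that METH effect, and Tac1 from -0.05 to 0.30 in MC vs SC and from -0.15 to 0.17 in MNL vs MC.

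The groups share no replicate numbers and the labels state no pairing. Neighbouring striatum numbers, taken instead as a random block, moved Tac1 in SL vs SNL past the threshold (-1.03, adjusted p = 0.0122). Of 11 neighbouring pairs, 10 correlated over 0.1, and 8 of 11 lesioned-side arrays correlated best with their neighbour, a hint from the data and not the design. Tac1 was lower and Tac3 higher on the lesioned side in 11 of 11. The difference Tac3 minus Tac1 between groups moved by less than its spread under all alternatives run (SL vs SNL 2.15 to 2.62, ML vs MNL 2.38 to 2.67).

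Over other settings the number of probes called ranged from 1 to 17 in SL vs SNL (8 in the fit reported), 0 to 12 in ML vs SNL (9), 0 to 12 in MNL vs SNL (11), 0 to 29 in ML vs MNL (12), 0 to 67 in SL vs SC (16), 0 to 19 in ML vs MC (8) and 13 to 51 for the averaged lesion comparison (17). Without 1 array it ranged from 3 to 8 in SL vs SNL, 5 to 192 in SL vs SC (192 without SC replicate 16) and 2 to 12 in ML vs MC. Each gene has 1 probe, so no other probe could be tried. Tac4 and Tacr3 lay under detection on every array, so a change in them could not be measured.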
